A study of Mus musculus with 15 samples.

Results

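The 6 CSR-HTGTS libraries that the study's figures give as WT and Shld1-/- were compared, 3 on each side, out of 15 in the series. They were chosen by a measured value: the number of Sγ1 junctions in each of the 6 deposited lists equals a count printed in the figures for WT or for Shld1-/-, so the Sγ1 counts and shares are given below as a description, without a test. CSR-HTGTS maps class switch junctions by linear amplification from a fixed bait break in the 5′ part of Sμ, and reads out the prey sequence joined to it. The genotype in the deposited labels was the same as in the figures for 2 of the 6 libraries and another for 4.

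Printed WT 1 is labelled WT, printed WT 2 is labelled Shld1-/- and printed WT 3 is labelled XLF-/-. Printed Shld1-/- 1 is labelled WT, printed Shld1-/- 2 is labelled Shld1-/- and printed Shld1-/- 3 is labelled Shld1-/-XLF-/-. The numbers are the repeats of the figures. Only printed WT 1 and printed Shld1-/- 2 carry the same genotype in both sources, and the values of this pair are repeated beside the main results. All 6 libraries came from splenic B cells of C57BL/6 mice, aged 6 to 17 weeks in the study's methods, that were stimulated with αIgD-dextran, LPS and IL4 for 96 h. Per the study's methods, the Shld1 allele is a germline deletion made with CRISPR/Cas9 and affects every cell of the animal, not only B cells. The labels also carry a target-locus entry, which names a deletion from Sμ to Sα on the non-coding Igh allele for the libraries labelled WT, a further Iα deletion for those labelled Shld1-/- or XLF-/-, and inserted CBEs near Cγ2a for the one labelled Shld1-/-XLF-/-. The study's methods describe no such alleles in these mice. The cell type could not be checked against marker genes, because the lists hold DNA junctions and no expression.

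Class switching joins 2 broken switch regions, long repeats that lie before each constant-region gene and are cut after AID deaminates their cytosines. Joining of Sμ to Sγ1 with loss of the DNA between them replaces the μ by the γ1 constant region, while joining in the other orientation inverts that DNA and gives no antibody heavy chain of the new class. SHLD1 is a subunit of shieldin, a complex that acts downstream of 53BP1 to protect broken ends from resection, the removal of one strand from the end inwards. Ends with little single strand are joined by non-homologous end-joining, often with no shared base, and resected ends can be joined through short stretches of identical sequence, called microhomology (MH).

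The bait is shown first, because every junction begins in it. It was read from the junction sequences and is printed from its first base, with the AID hotspot motif AGCT in capitals. It lies on the minus strand at chr12:114664810-114664909 in mm9, and matched GRCm38 once on this chromosome, at chr12:113426599-113426698, 3869 bp upstream of the annotated Ighm gene, between the J segments and the Cμ exons.
Bait: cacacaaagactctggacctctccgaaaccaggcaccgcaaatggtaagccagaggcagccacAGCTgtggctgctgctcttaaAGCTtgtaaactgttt

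Of each kind of junction that the results below turn on, 1 example is printed, always the first in the list of its library that fitted the description and had 25 bases on each side. The sequences run from bait to prey, and capitals mark MH, bases that match both the bait and the prey. The WT example is a direct join, with no shared base, in which bait base 123 was joined to core Sγ1 at chr12:114570383 (mm9), after the 25th base printed. The other 4 come from printed Shld1-/- 2.
WT core direct join: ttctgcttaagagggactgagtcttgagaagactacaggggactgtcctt
Shld1-/- join within Ighg1: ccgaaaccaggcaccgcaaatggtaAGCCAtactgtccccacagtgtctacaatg
Shld1-/- join within Ighm: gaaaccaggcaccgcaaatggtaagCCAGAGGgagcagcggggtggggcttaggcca
Shld1-/- inversional join in core Sγ1: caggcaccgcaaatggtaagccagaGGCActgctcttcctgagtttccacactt
Shld1-/- join within Sμ: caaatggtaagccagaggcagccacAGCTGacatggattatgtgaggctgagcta

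The Ighg1 join used 5 bp of MH and lay in an intron at chr12:114565649 (mm9), 3351 bp downstream of core Sγ1. The Ighm join used 7 bp and lay in an intron 4275 bp from the bait break, at chr12:114660579. The inversional join used 4 bp, at chr12:114576560, and the Sμ join used AGCTG, the 5 bp at the first hotspot of the bait, at chr12:114662217.

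The lists held 4109, 8110 and 7533 junctions in the Igh window (chr12:114450000-114700000, mm9) in printed WT 1, 2 and 3, and 2120, 2883 and 2532 in printed Shld1-/- 1, 2 and 3. The 6 lists had no read in common, and any 2 of them had at most 3 junctions alike in prey position, strand, bait end and read length. Rows flagged by the authors' pipeline for mapping quality made up 37.9% to 39.1% of the WT lists and 15.9% to 21.2% of the Shld1-/- lists. All rows were counted. Without the flagged rows, the differences between the sides that are given below with a permutation p kept their direction. Intervals below are 95% Wilson intervals and cover counting error only, since the reads carry no molecular identifiers. With 3 libraries against 3, an exact two-sided permutation test over libraries cannot give a p below 0.10, and no comparison could pass 0.05.

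The places to which the bait was joined were compared first. In the printed WT libraries nearly all junctions lay in Sμ or in the 8-kb core of Sγ1, and in the printed Shld1-/- libraries a large part lay in the unique DNA downstream of each of them. The Sγ1 window (chr12:114562000-114582000) held 57.2%, 63.9% and 64.2% of Igh junctions in WT 1, 2 and 3 and 25.6%, 30.5% and 31.7% in Shld1-/- 1, 2 and 3. These are the counts that the choice of libraries used. The shares of a library sum to 100%, so a lower share in Sγ1 goes with higher shares elsewhere.

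The lower share in Sγ1 lay in deletional junctions. Deletional junctions in core Sγ1 (chr12:114569000-114577000), the joins that complete switching to γ1, made up 54.3%, 60.7% and 60.5% of Igh junctions in WT and 16.2%, 15.2% and 16.4% in Shld1-/-. Inversional junctions in the same core were not lower: they made up 2.46%, 2.53% and 3.15% in WT and 3.73%, 6.56% and 6.95% in Shld1-/-, with no overlap between the sides. Junctions of the bait with Sμ itself, which delete or invert a piece of the donor switch region, took 40.9%, 34.0% and 33.7% of Igh junctions in WT and 65.0%, 55.5% and 53.8% in Shld1-/-. The segments outside the Sμ window and core Sγ1 together held 2.39% to 2.75% in WT and 15.0%, 22.8% and 22.9% in Shld1-/-. These shares leave out the junctions downstream of Sμ that still lie inside the Sμ window, such as those in Ighm.

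**Figure D1:**
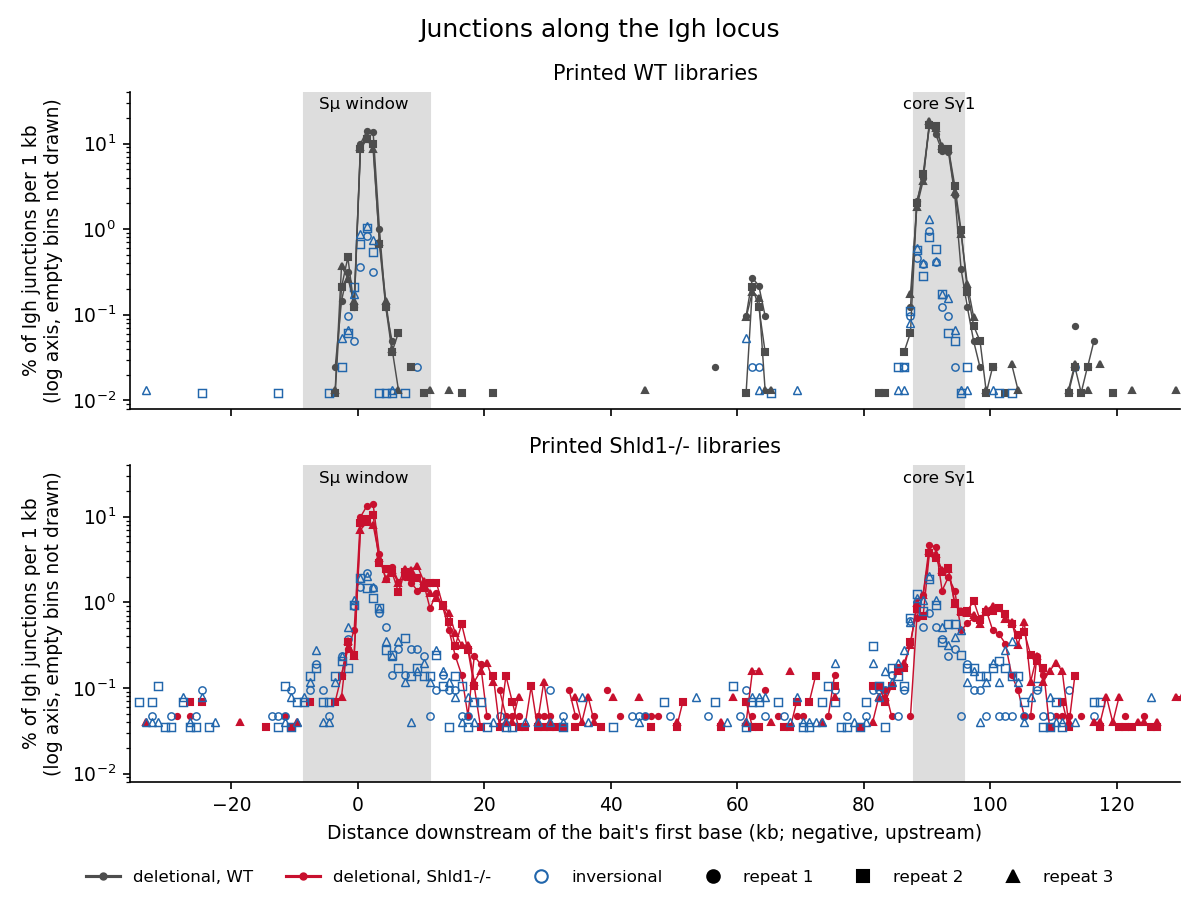
Percent of Igh junctions in each 1-kb bin (log axis) against the distance downstream of the first base of the bait in kb, for the 3 printed WT libraries (top) and the 3 printed Shld1-/- libraries (bottom). Filled symbols joined by lines are deletional and open blue symbols inversional junctions, symbol shape gives the repeat, grey bands mark the Sμ window and core Sγ1, and bins with no junction are not drawn. From 5 to 20 kb downstream of the bait every WT library holds at most 0.173% of its junctions and every Shld1-/- library at least 17.3%, and a like tail follows core Sγ1.

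The peaks stood in the same places on both sides. The 1-kb bin with the most junctions in the Sμ window was chr12:114663000-114663999 on both sides, with 12.2% to 14.7% of Igh junctions in WT and 10.7% to 15.5% in Shld1-/-. In the Sγ1 window it was chr12:114574000-114574999 on both sides, with 17.1% to 19.5% in WT and 5.47% to 5.96% in Shld1-/-. The median deletional junction in core Sγ1 lay 3358, 3414 and 3396 bp from the upstream edge of the core in WT and 3393, 3654 and 3387 bp in Shld1-/-, so the sides overlapped in this measure. The range that holds the middle 50% of these junctions was 2110 to 2209 bp wide in WT and 2295 to 2624 bp in Shld1-/-.

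Downstream of Sμ, the constant-region genes themselves carried junctions in Shld1-/-. Prey reads were placed on GENCODE genes by their own exact and unique 30-base match to GRCm38, which 44.2% to 45.6% of WT and 59.1% to 66.2% of Shld1-/- junctions had. The match reached 43.7% to 52.5% of junctions in core Sγ1, which is repetitive, and 74.1% to 90.6% in the flank downstream of it. In the Sμ window, which holds Ighm, it reached 39.8% to 44.8% in WT and 56.6% to 64.5% in Shld1-/-. Shares of genes are thus low by an amount that was not measured for single genes. Ighm, which encodes the constant region of IgM and begins just after Sμ (chr12:113418558-113422730, GRCm38, minus strand), held 5, 20 and 11 junctions in WT, or 0.122%, 0.247% and 0.146% of Igh junctions. In Shld1-/- it held 173, 248 and 217, or 8.16%, 8.60% and 8.57%. The means were 0.171% ± 0.0662 (SD, n = 3) and 8.44% ± 0.246 (SD, n = 3), a 49.3-fold difference.

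Ighd, the IgD gene that follows Ighm with no classical switch region of its own (chr12:113406604-113416324), held 3 junctions among 19752 in the WT libraries together and 482 among 7535 in Shld1-/-. By library these were 0, 1 and 2 in WT, and in Shld1-/- 5.09%, 6.97% and 6.83% of Igh junctions. The 0 of WT 1 allows a share of up to 0.0730%, counted as 3 junctions of its total, or 0.0934% as the Wilson limit. Exons and introns both carried them: in Shld1-/- the exons of Ighm held 3.59% to 4.09% of Igh junctions and its introns 4.15% to 4.98%, and for Ighd these were 1.32% to 1.70% and 3.77% to 5.62%. Within Ighm, 10.1% to 13.9% of the Shld1-/- junctions were inversional, and within Ighd 11.9% to 13.9%. Counted by mm9 position and without any match to genes, the region from 114645000 to 114659999, 5 to 20 kb downstream of the bait, held 0.0730%, 0.173% and 0.0929% in WT and 17.3%, 19.6% and 20.7% in Shld1-/-. Part of this region lies inside the Sμ window, so the Sμ-window shares above include that part.

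At the acceptor, the same held for Ighg1, which encodes the γ1 constant region directly downstream of Sγ1 (chr12:113325240-113330523). It held 0.146%, 0.284% and 0.159% of Igh junctions in WT and 3.16%, 4.37% and 4.07% in Shld1-/-, a 19.7-fold difference of means. Long resection, the share of deletional junctions in or downstream of the core (to the end of the window) that lay downstream of it, was 0.402%, 0.586% and 0.546% in WT and 19.4%, 27.0% and 24.3% in Shld1-/-. It shares its counts with the choice of the libraries and was not tested. Deletional junctions within 20 kb downstream of the core lay at a median of 800 to 1443 bp from its edge in WT (13 to 35 junctions a library) and 3520, 4900 and 5188 bp in Shld1-/- (102, 229 and 197 junctions). For each 1000 deletional core junctions there were 5.83, 7.11 and 7.03 of them in WT and 297, 523 and 475 in Shld1-/-.

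**Figure D2:**
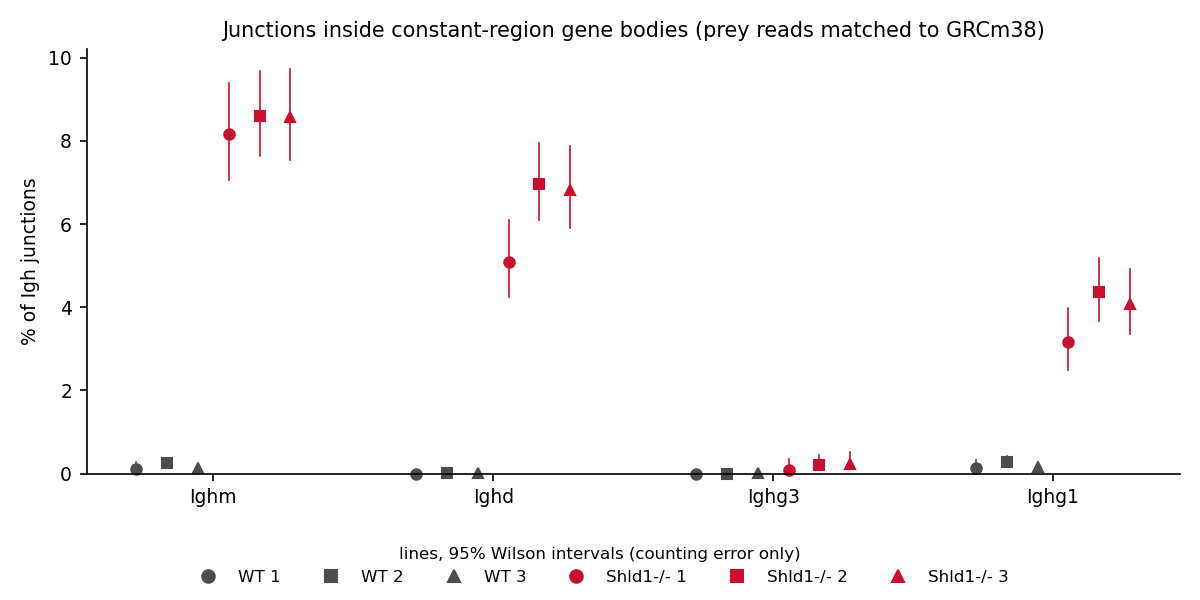
Percent of Igh junctions whose prey read matched GRCm38 inside the bodies of Ighm, Ighd, Ighg3 and Ighg1, in order along the locus, with 1 symbol per library (grey WT, red Shld1-/-) and 95% Wilson intervals. Ighm, Ighd and Ighg1 held 3.16% or more in every Shld1-/- library and 0.284% or less in every WT library, while Ighg3 held at most 0.237% in any library.

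The other constant-region genes carried few junctions. Ighg3, which encodes the γ3 constant region, lies between Ighd and Ighg1, and held 0 to 0.0265% in WT and 0.0943%, 0.208% and 0.237% in Shld1-/-. The bodies of Ighg2b, Ighg2c, Ighe and Igha, further downstream, each held at most 0.197% in any library. Upstream of the Sμ window, on the other side of the bait, 0, 2 and 1 junctions were found in WT and 13, 29 and 17 in Shld1-/-, or 0.613%, 1.01% and 0.671% of Igh junctions, of which 76.9% to 82.4% were inversional.

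Further 5-kb bins, named after their values were seen, lay just upstream of other constant genes. The 5-kb bin chr12:114510000-114514999 (mm9) matched GRCm38 at a median of 2340 bp upstream of Ighe, where the switch region used for IgE lies. It held 0.535%, 1.13% and 0.943% of Igh junctions in WT and 0.189%, 0.0347% and 0.237% in Shld1-/- (4, 1 and 6 junctions), lower in every Shld1-/- library. The bin chr12:114600000-114604999, at a median of 2656 bp upstream of Ighg3, held 0.730%, 0.382% and 0.518% in WT and 0.330%, 0.312% and 0.632% in Shld1-/-, and the sides overlapped. The bin chr12:114545000-114549999, at a median of 1486 bp upstream of Ighg2b, held 3 junctions in each WT library and 1, 5 and 5 in Shld1-/-, or 0.0730%, 0.0370% and 0.0398% against 0.0472%, 0.173% and 0.197%, and the sides overlapped as well.

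Inversional joining was more frequent on the Shld1-/- side. In core Sγ1, 4.33%, 4.0% and 4.95% of junctions were inversional in WT and 18.7%, 30.1% and 29.8% in Shld1-/-. The means were 4.43% ± 0.481 and 26.2% ± 6.52 (SD, n = 3 each), a difference of 21.8 percentage points (SE 3.77, exact two-sided permutation p = 0.10). These junctions are part of the Sγ1 counts by which the libraries were chosen, so this p gives no independent support. All 3 Shld1-/- libraries stood above all WT libraries, and Shld1-/- 1 stood below the others with an interval of 15.3% to 22.7% that did not reach theirs. In the libraries with 1 genotype in both sources the shares were 4.33% and 30.1%.

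In the Sμ window, inversional junctions made up 4.11%, 7.61% and 8.89% in WT and 15.0%, 16.1% and 19.1% in Shld1-/-, a difference of 9.86 percentage points (SE 1.88, exact permutation p = 0.10). The sides did not overlap, although the WT libraries also differed among themselves by more than their counting intervals (3.26% to 5.17% in WT 1 and 7.85% to 10.1% in WT 3). Across the Igh window, 4.33% to 6.43% of junctions were inversional in WT and 17.7%, 21.9% and 23.6% in Shld1-/-.

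Orientation differed between the flanks of core Sγ1. Of the junctions in the flank upstream of the core (chr12:114577000-114582000), 84.0%, 56.1% and 64.2% were inversional in Shld1-/-. In WT, where 10 to 22 junctions a library lay in it, 5 of 10, 59.1% and 38.1% were. Of those in the downstream flank (chr12:114562000-114568999), 11.7%, 17.3% and 16.4% were inversional in Shld1-/-, and 0% to 9.38% in WT. Among the core and its flanks, the inversional share in each Shld1-/- library was thus highest in the upstream flank, lower in the core and lowest in the downstream flank. Further out the order did not continue. Between Sμ and Sγ1, 23.9% to 26.9% were inversional in Shld1-/- and 2.86% to 14.0% in WT, and beyond Sγ1 21.4% to 29.5% and 2.08% to 6.06%. Per Igh junction, the upstream flank held 0.991% to 1.34% of inversional junctions in Shld1-/- and 0.106% to 0.160% in WT.

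**Figure D3:**
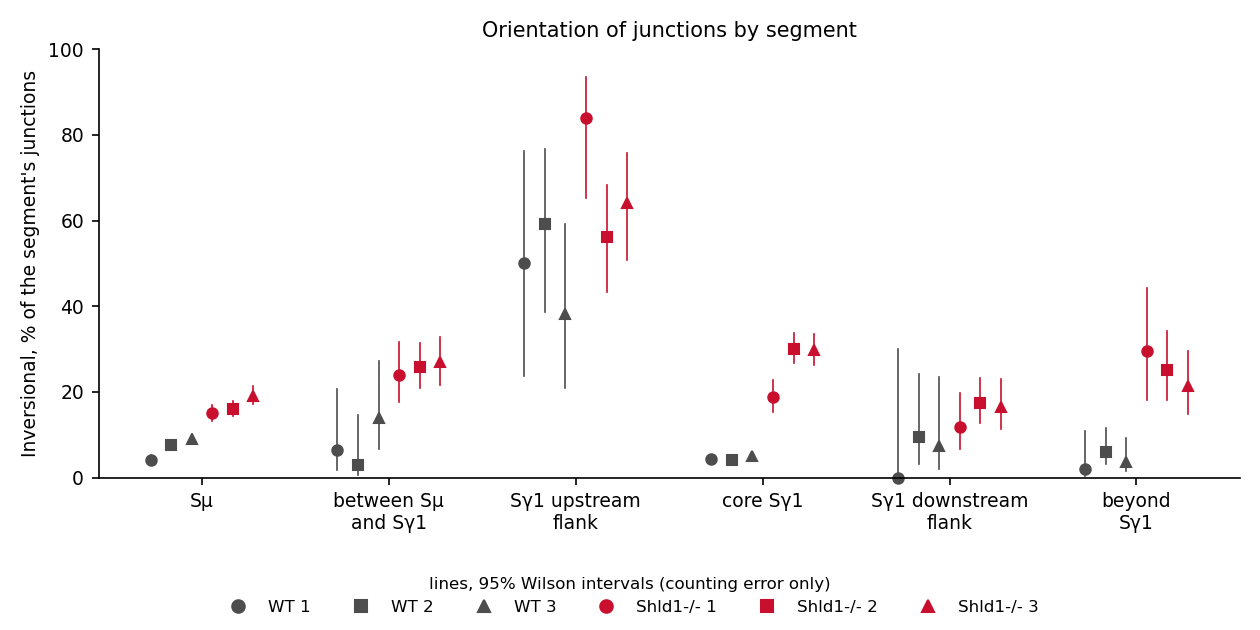
Inversional junctions as percent of all junctions in 6 of the 7 segments of the Igh window (the segment upstream of Sμ, with 0 to 29 junctions, is not drawn), by library (grey WT, red Shld1-/-, symbol shape for the repeat), with 95% Wilson intervals. In core Sγ1 WT lies at 4.0% to 4.95% and Shld1-/- at 18.7% to 30.1%, and the Sγ1 upstream flank has the highest inversional share of the segments drawn in all 6 libraries.

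The structure of the junctions was compared next, leaving junctions with inserted bases out of the denominator. In the Sγ1 window, direct joins made up 30.3%, 30.8% and 31.0% in WT and 16.6%, 16.2% and 12.7% in Shld1-/-. The means were 30.7% ± 0.386 and 15.2% ± 2.13 (SD, n = 3 each), a difference of -15.5 percentage points (SE 1.25, exact permutation p = 0.10). MH of more than 3 bp was found in 11.0%, 12.3% and 11.3% in WT and in 30.1%, 31.7% and 28.6% in Shld1-/-, a difference of 18.6 points (SE 0.979, exact permutation p = 0.10). No library of one side reached the other in either measure. These tests, and those of mean MH length and insertions in this window, use the Sγ1 junctions by whose counts the libraries were chosen. As for core inversions, their p gives no independent support. In the libraries with 1 genotype in both sources, direct joins were 30.3% and 16.2% and MH over 3 bp 11.0% and 31.7%.

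The mean MH length in the Sγ1 window was 1.57, 1.67 and 1.62 bp in WT and 2.72, 2.82 and 2.72 bp in Shld1-/- (exact permutation p = 0.10). The lengths differed in different directions. Joins with 1 bp of MH made up 28.1% to 30.1% in WT and 13.8% to 15.9% in Shld1-/-, and so were lower together with direct joins. Joins with 2 bp made up 17.8% to 18.5% and 19.0% to 24.7%, close to each other at their nearest. Joins with 3 bp (10.3% to 11.3% and 17.7% to 19.3%) and 4 bp (4.41% to 4.62% and 11.6% to 13.3%) were higher in every Shld1-/- library. At 8 bp the sides overlapped.

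The Sμ window showed the same form, but its joins within Sμ and within Ighm were not separated here. Within Ighm, direct joins made up 6.19% to 8.28% in Shld1-/- and 0% to 31.2% in WT, where few junctions lay in it. Direct joins in the Sμ window made up 31.1%, 33.5% and 35.1% in WT and 14.8%, 13.4% and 14.1% in Shld1-/-, a difference of -19.1 percentage points (SE 1.23, exact permutation p = 0.10). MH over 3 bp was found in 9.70%, 10.5% and 11.0% and in 24.3%, 28.1% and 28.5% (difference 16.6 points, SE 1.40, exact permutation p = 0.10). The mean MH length was 1.46, 1.47 and 1.50 bp in WT and 2.52, 2.69 and 2.72 bp in Shld1-/-.

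**Figure D4:**
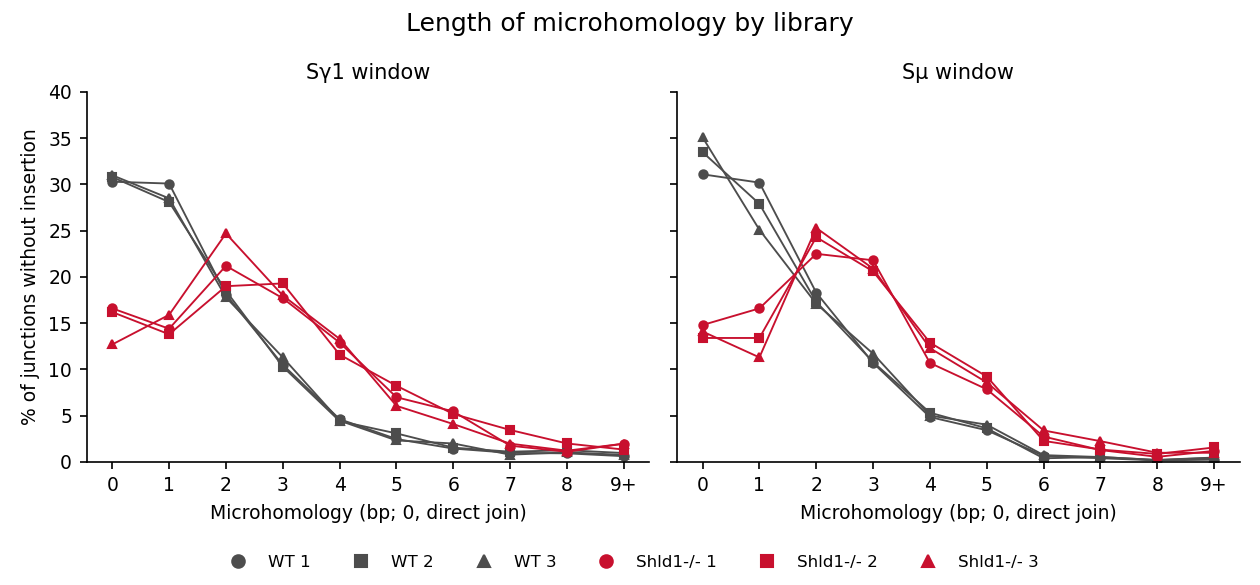
Percent of junctions without insertion against the length of MH in bp (0, direct join; last point, 9 bp or more), with 1 line per library (grey WT, red Shld1-/-), for the Sγ1 window (left) and the Sμ window (right). The WT lines start between 30.3% and 35.1% and drop from 1 to 6 bp, with small rises in some libraries at longer MH. The Shld1-/- lines have their highest point at 2 or 3 bp.

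The shortage of direct joins was not the same in every kind of junction. Among deletional joins within core Sγ1, direct joins still made up 22.8%, 23.9% and 18.5% in Shld1-/-, against 30.7%, 30.7% and 31.1% in WT. Among deletional joins in the downstream flank, outside the switch repeats, they made up 4.05%, 7.19% and 5.13% in Shld1-/- (74 to 139 junctions a library). In WT that flank held only 9, 25 and 23 such joins, of which 33.3%, 24.0% and 21.7% were direct, with intervals as wide as 12.1% to 64.6%. Over all segments outside the Sμ window and core Sγ1, direct joins were 30.8%, 26.7% and 35.1% in WT and 5.11%, 6.61% and 5.04% in Shld1-/-. MH over 3 bp was found in 34.2% to 37.8% of the deletional joins of the downstream flank in Shld1-/-, and in 24.9% to 27.8% of those in the core.

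Inversional core joins were set against deletional core joins of the same library. The share of direct joins was lower among the inversional ones by 15.7, 12.3 and 9.51 percentage points in Shld1-/- 1, 2 and 3, where inversional joins had 7.14%, 11.6% and 9.03% of direct joins. In WT 1, 2 and 3 the inversional share minus the deletional one was -7.13, 2.65 and -0.556 points. Over the 6 libraries the mean difference was -7.08 points, lower in 5 of 6 (SD 6.98, exact two-sided sign-flip p = 0.0938). The smallest p this test can give is 0.031. Whether the difference itself differed between the sides was not tested.

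**Figure D5:**
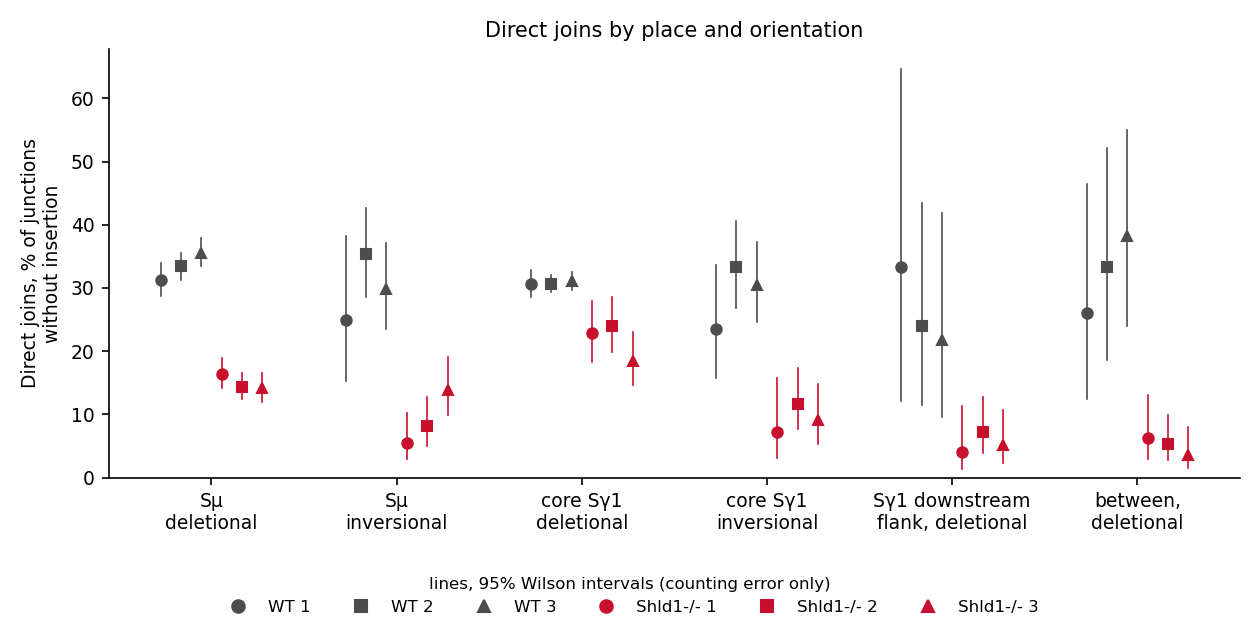
Direct joins as percent of junctions without insertion, by place and orientation of the junction and by library (grey WT, red Shld1-/-), with 95% Wilson intervals. Shld1-/- values lie between 18.5% and 23.9% for deletional joins in core Sγ1 and between 3.52% and 7.19% for deletional joins in the downstream flank and between Sμ and Sγ1, and the WT intervals of these last 2 kinds are wide.

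Insertions are bases at the junction that match neither side. All insertions together made up 17.1%, 17.3% and 17.9% of junctions in the Sγ1 window in WT and 15.5%, 14.4% and 17.8% in Shld1-/-, and the sides overlapped (difference -1.53 points, SE 1.02, exact permutation p = 0.30). That difference was -0.793 without Shld1-/- 2, -2.48 without Shld1-/- 3, -0.744 without rows flagged for mapping quality and -2.72 in the libraries with 1 genotype in both sources. Insertions of 1 bp, taken alone, made up 7.96%, 8.09% and 8.70% in WT and 3.69%, 5.45% and 4.86% in Shld1-/-. Those of 2 to 4 bp overlapped, at 5.81% to 6.17% in WT and 5.00% to 8.12% in Shld1-/-. Those of 5 bp or more made up 3.02% to 3.40% in WT and 3.69%, 3.98% and 5.60% in Shld1-/-. In the Sμ window all insertions made up 25.1%, 25.1% and 24.6% in WT and 20.5%, 20.1% and 17.9% in Shld1-/- (difference -5.42 points, SE 0.817, exact permutation p = 0.10), lower in every Shld1-/- library. Without rows flagged for mapping quality this difference was -2.14 points (17.4% and 15.3%). There, insertions of 1 bp made up 9.11% to 9.72% and 5.00% to 6.16%, those of 2 to 4 bp 8.62% to 9.88% and 6.39% to 7.25%, and those of 5 bp or more overlapped, at 6.13% to 6.74% and 6.54% to 7.40%. The split by length was made after the values were seen.

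The bases used as MH were read from the junctions with 4 bp or more. In the Sμ window, 24.6%, 24.9% and 26.2% of these MHs held the hotspot AGCT in WT and 22.9%, 24.2% and 20.8% in Shld1-/-, slightly lower in every Shld1-/- library. As long MHs were more frequent in Shld1-/-, AGCT-holding MHs made up 5.57%, 6.80% and 5.91% of Sμ-window junctions without insertion there, against 2.38%, 2.61% and 2.87% in WT. In the Sγ1 window 9.11% to 11.6% of long MHs held AGCT in WT and 5.80% to 13.0% in Shld1-/-, and the sides overlapped.

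Single words differed more than the motif. The Sμ window also holds Ighm, with a mean of 0.171% of Igh junctions in WT and 8.44% in Shld1-/-. Words and motif shares of that window thus come from prey sequence that differs in part between the sides. The most frequent long MH in the Sμ window was GCTG in WT, with 18.9%, 18.4% and 13.8% of long MHs, against 5.26%, 3.06% and 3.46% in Shld1-/-. In Shld1-/- it was AGCTG, with 10.9%, 8.61% and 6.92%, against 10.7%, 13.8% and 11.0% in WT. In Sγ1 it was GGCAGCCA in WT (4.19%, 7.18% and 3.56%, against 0 of 138, 0.837% and 3.17% in Shld1-/-) and CCAG in Shld1-/- (10.9%, 3.35% and 4.23%, against 0.465%, 3.21% and 3.78%), both by the mean over 3 libraries. These ranks differed between libraries: AGCCAG was above CCAG in Shld1-/- 2 (4.18%) and above GGCAGCCA in WT 3 (5.11%), and CTGT was above CCAG in Shld1-/- 3 (5.29%). All 4 words stand in the printed bait. The long MHs of Sγ1 were of 278 different words in WT (1194 joins) and 213 in Shld1-/- (566 joins). G and C made up 63.7% to 66.3% of their bases in WT and 60.1% to 62.0% in Shld1-/-.

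The last base of the bait differed between the sides at single positions. The bait part of the junction had a median length of 65.0 to 68.0 bases in WT and 65.0 to 66.0 in Shld1-/-. The most frequent last bait base was base 59 in WT, with 2.46%, 2.44% and 2.73% of Igh junctions, against 0.708%, 1.01% and 0.829% in Shld1-/-. In Shld1-/- it was base 68, the G that follows the first AGCT of the bait, with 3.68%, 3.71% and 3.79%, against 1.75%, 1.90% and 1.71% in WT. A bait end includes the MH, which belongs to bait and prey alike, so these positions move with MH length.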

How the data were processed

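CSR-HTGTS libraries were prepared by the authors from stimulated splenic B cells, and the reads were processed with their published HTGTS pipeline; the submitters' processing notes name Bowtie2 and mm9. The authors deposited 1 list per library, with 1 row per junction, without normalization. Positions, strands, read coordinates and filter flags were used, in whole numbers. The depth is the number of junctions, 2120 to 8110 in the Igh window, so that 3 junctions are 0.0370% to 0.142% of a library.

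The libraries, windows and measures were chosen with earlier results of these data known. Sides are the genotypes printed in the study's figures, and GEO's labels served as an alternative. The segments described were 7, with the top 1-kb bin of each switch window. MH is the last aligned bait base on the read minus the first prey base plus 1, and negative values are insertions. A junction is called deletional where prey and bait lie on the same strand. This was applied to prey upstream of the bait as well, where the name does not describe a deletion between bait and prey. The Sμ window is chr12:114653500-114673499. Core Sγ1 follows the study's drawing. Measures printed with a permutation p were tested over library values, by an exact two-sided permutation test. For pairs of printed repeats a sign-flip test was added. Inversional and deletional core joins were compared by a sign-flip test over libraries. All other measures were described only. The labels do not say whether the libraries came from separate mice, which the study's text does, so p-values measure the spread between these libraries. Prey reads were matched to GRCm38 (GENCODE M21) by their first 30 bases within chr12:113150001-113550000, with no conversion between builds. Python 3.11.15, numpy 2.4.6, pandas 2.3.3, scipy 1.17.1 and matplotlib 3.10.9 were used. Simulated data of known composition served to check direct joins in both windows and, for Sγ1, insertions, MH over 3 bp, share, core inversions and long resection. The exact tests were checked on small sets of values. The remaining measures were not simulated. Alternatives were flags, collapsed or pooled junctions, the core's edges, denominators and single libraries left out.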

Additional observations from a re-analysis of the deposited data

Results flagged for a closer look

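The lists also hold rows outside the Igh window, which none of the comparisons used, and these were more frequent in the printed Shld1-/- libraries than in any printed WT library. Rows elsewhere on chromosome 12 made up 10.3%, 11.4% and 10.5% of all rows in printed Shld1-/- 1, 2 and 3, against 0.698%, 0.410% and 0.544% in printed WT 1, 2 and 3. Rows on other chromosomes made up 14.4%, 10.3% and 11.0%, against 6.78%, 4.52% and 4.10%.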

How the results depend on the processing

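For 11 measures, 153 values under alternatives were computed, of which 140 kept the direction of the reported difference (Shld1-/- minus WT, in percentage points) and, where untested, moved by less than the spread between libraries. All 66 values with 1 library left out were among these, though insertions in Sγ1 ranged from -2.48 to -0.793, without Shld1-/- 3 and 2. Without rows flagged for mapping quality, insertions differed by -0.744 in Sγ1 and by -2.14 in Sμ. Pairing the libraries by printed repeat as a replicate block left the differences as they were, with an exact sign-flip p of 0.25, the smallest that 3 pairs can give; GEO's labels carry no replicate numbers. Grouping by the deposited genotype labels mixed the printed genotypes and turned 6 differences: direct joins in Sγ1 to 1.80 and in Sμ to 3.17, insertions in Sγ1 to 1.79 and in Sμ to 1.42, inversions in Sμ to -1.34 and the Sγ1 share to 4.11. This grouping was not a regrouping of the same 6 libraries. It also drew on the series outside them for the WT label, and left out printed WT 3 and printed Shld1-/- 3, whose labels name XLF. The other 4 tested differences kept their direction under the labels and were much smaller: MH over 3 bp 1.56 in Sγ1 and 0.598 in Sμ, mean MH length 0.0501 bp and inversions in core Sγ1 6.59, with an exact permutation p of 0.70 to 0.90. Under the labels long resection differed by 5.75, against 23.1 as reported. With only the 2 libraries whose genotype is the same in label and figure, the Sγ1 share differed by -26.7, against -32.5 as reported, and long resection by 26.6. The Sγ1 share counted as core Sγ1 over Sμ and Sγ1 junctions differed by -37.6. Long resection differed by 32.4 without rows flagged for mapping quality, by 26.1 with the core narrowed by 1 kb on each side and by 19.7 with it widened. The Sγ1 counts of 542 to 880 junctions in the Shld1-/- libraries limit the precision of each of their shares.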

Other observations

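Baits of more than 130 bp were less frequent in the printed Shld1-/- libraries, with 5.47%, 4.09% and 3.87% of Igh junctions against 9.30%, 7.34% and 8.36% in printed WT 1, 2 and 3. Of 1-bp insertions in the Sγ1 window, 65.3% to 66.6% were A or T in WT and 62.5% to 84.6% in Shld1-/-, where 20 to 48 such insertions a library were found, and the sides overlapped.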
